A study of Mus musculus with 6 samples.

Results

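The genes that make purine nucleotides, pyrimidine nucleotides and deoxynucleotides were followed in mouse leukaemia cells of the line Nras(G12D)/MLL-AF9. The cells had been kept for 6 days with 100 µM 4'-O-methylpyridoxine (OMP) or with PBS as vehicle, and each group had 3 RNA-seq libraries. A list of 32 enzyme genes was looked up by gene name among the 53465 rows of the RPKM table, and each name matched 1 row. Of these genes 15 belong to purine steps, 7 to pyrimidine steps and 8 to deoxynucleotide steps, and 2 are nucleoside diphosphate kinases, which serve all of them. OMP, also called ginkgotoxin, resembles vitamin B6 and is known to block pyridoxal kinase, which activates that vitamin. Cells of both groups carried the mutant Nras and the MLL-AF9 fusion of Kmt2a with Mllt3. Both groups grew in RPMI medium with fetal bovine serum, SCF, IL-3 and IL-6. The study used this single line, and the labels do not say whether it is 1 clone or whether replicates were separate cultures, so p-values reflect only how these libraries vary, and that variation may be technical. The comparison asks how the mRNA level of each enzyme differed with OMP.

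Cells build purines piece by piece on an activated ribose phosphate until inosine monophosphate (IMP) is complete, and IMP is then turned into AMP or GMP. The pyrimidine ring is made before it is joined to the ribose phosphate, giving UMP, from which UTP and CTP follow. Ribonucleotide reductase strips an oxygen from ribonucleoside diphosphates to make the deoxynucleotides of DNA, and thymidylate synthase adds the methyl group that makes thymidylate. Salvage enzymes recycle free bases and nucleosides. Some deoxynucleotide genes are known for their peak in S phase, and many genes of ribonucleotide synthesis are known targets of the transcription factor MYC. Both sets matter in rapidly dividing leukaemia cells.

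The deoxynucleotide genes fell in OMP-treated cells, all 8 of 8, with log2 fold changes between -1.32 and -0.29. The purine and pyrimidine genes moved in both directions. RPKM is reads per kilobase of the length given to a gene, scaled to library size. A gene was tested when it reached an RPKM of 1 in at least 3 of the 6 libraries. It was called at a limma adjusted p under 0.05. Of the 32 genes 31 were tested, with 6.58 RPKM as the lowest value in any library, and Nme2 was under the filter. Among the 31, 8 were called higher and 13 lower with OMP, which is 67.7%. Over all 11020 genes tested, 43.0% were called, 15.4% higher and 27.5% lower. The groups did not overlap in 23 of the 31 genes (74.2%), against 54.5% of all genes tested. The median log2 fold change was -0.03 over the 31 genes and -0.09 over all genes tested. By steps, 5 purine genes were higher and 3 lower of 15, 2 pyrimidine genes were higher and 2 lower of 7, and Nme1 was higher. The split between directions depended on scaling. Median-of-ratios scaling called 11 of the 31 higher and 11 lower, quantile normalization 9 and 11, and TPM rescaling 5 and 15, while over all genes the same scalings called 2366 and 2236, 2224 and 2337, and 1221 and 3982. In each of these the 8 deoxynucleotide genes stayed lower and no tested gene of the 31 was called in opposite directions.

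**Figure D1:**
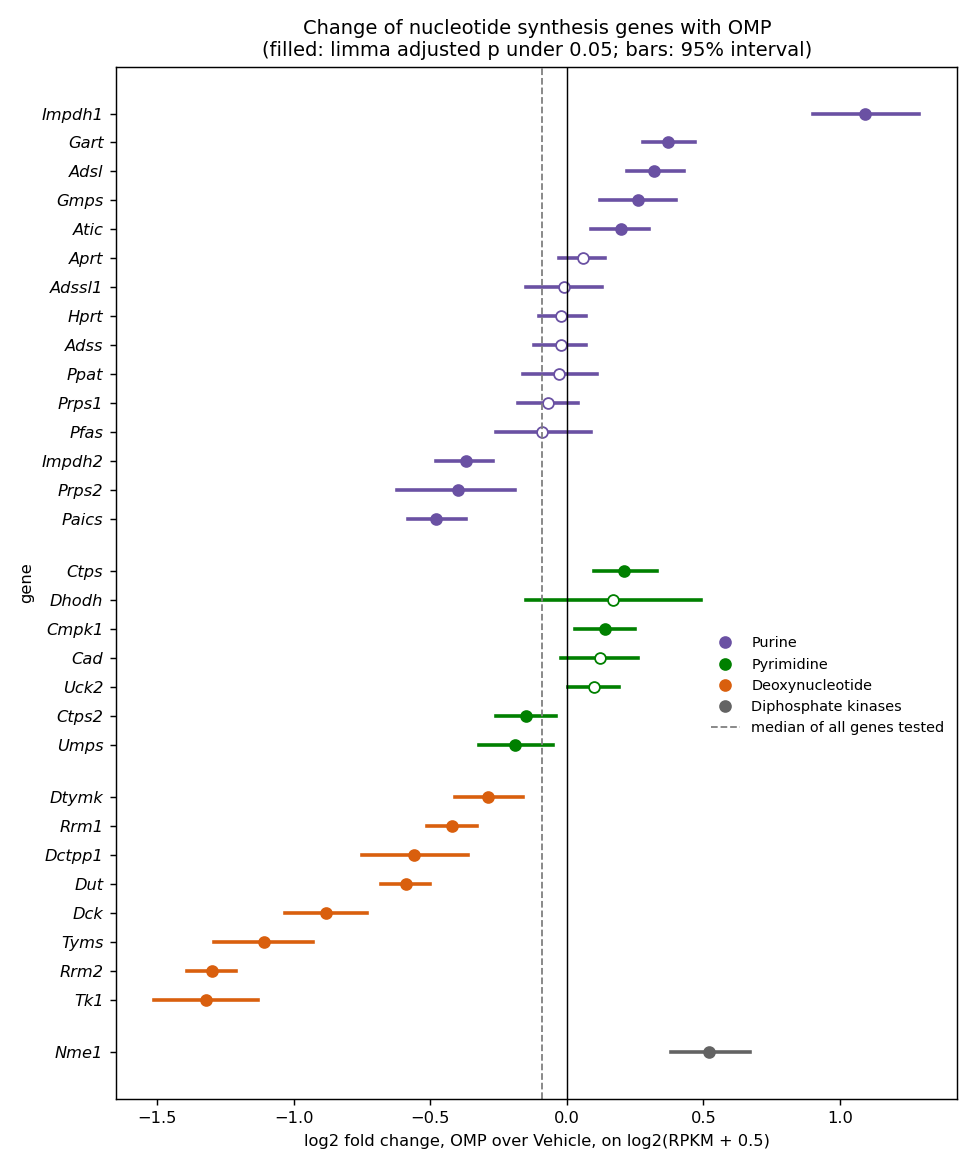
Log2 fold change of each tested nucleotide gene, OMP over Vehicle, on the log2(RPKM + 0.5) scale (x axis), with genes down the y axis by step and bars giving the 95% interval from limma over 3 OMP and 3 Vehicle libraries. Filled circles passed an adjusted p of 0.05 and the dashed line is the median of all genes tested (-0.09). The 8 deoxynucleotide genes lie left of that line, from -0.29 (Dtymk) to -1.32 (Tk1), while purine genes run from -0.48 (Paics) to 1.09 (Impdh1).

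Library totals recovered from the RPKM steps were 3494986 to 3720117 reads in OMP and 3737843 to 4247619 reads in Vehicle, and 27 of the 32 genes had at least 100 reads in every library. The others were Impdh1, Dhodh, Dctpp1, Tk1 and Nme2, and Tk1 had 88, 74 and 96 reads in the OMP libraries. The genes expected of this line were all measured, with Kmt2a at 121 ± 4.28 RPKM in OMP libraries and 73.1 ± 2.17 RPKM in Vehicle libraries (SD, n = 3 each) and Hoxa9 at 62.9 ± 2.39 RPKM in OMP libraries and 61.8 ± 4.20 RPKM in Vehicle libraries (SD, n = 3 each). Of 8 such markers 3 were called higher and 2 lower, with Kit among the lower ones (log2 fold change -1.12). The values of Kmt2a and Mllt3 do not show whether reads came from the fusion or from the normal genes. Granulocyte maturation markers were called higher for 14 of 15, where 15.4% of all genes tested were higher and 27.5% lower. Their summed level was 9589 to 10102 RPKM in OMP libraries and 2826 to 2932 RPKM in Vehicle libraries. Monocyte and macrophage markers had 3 higher and 2 lower of 8 tested, summed to 3074 to 3205 RPKM with OMP and 3045 to 3111 RPKM with Vehicle. Most of these sums came from Ly6c2, at 2521 RPKM with OMP and 2620 RPKM with Vehicle, so they hide changes of single markers. Cd14 (76.0 RPKM with OMP, 23.6 RPKM with Vehicle), Lyz2 and Cd68 were higher. Irf8 (6.96 RPKM with OMP, 38.6 RPKM with Vehicle) and Ccr2 were lower. Marco, C1qa, C1qb and C1qc were listed at 0. Erythroid and B cell markers were close to absent, with 0 of 10 tested in each list. Their sums, in that order, reached 0.874 RPKM and 1.04 RPKM in OMP and 0.959 RPKM and 0.858 RPKM in Vehicle libraries. Among 10 T and NK cell markers only Lck was tested (3.15 RPKM with OMP, 3.14 RPKM with Vehicle), and Cd3e, Cd3g, Cd4 and Cd8a were listed at 0. Of 10 stromal and endothelial markers 2 were tested. Together the 10 summed to 57.2 to 59.5 RPKM in OMP libraries and 84.1 to 88.3 RPKM in Vehicle libraries. Pecam1, at 55.6 RPKM with OMP and 83.4 RPKM with Vehicle, was called lower and Pdgfrb was not called, and Col1a2, Pdgfra, Dcn, Lum and Cxcl12 were listed at 0. In these bulk libraries, fewer cells of a type and less mRNA per cell cannot be told apart. The part of the granulocyte markers in the results on nucleotide genes was not tested.

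Ribonucleotide reductase, the enzyme that makes deoxynucleotides from ribonucleotides, showed the larger fall in the mRNA of its small subunit. Rrm2, the subunit that carries the tyrosyl radical and is made in S phase (ENSMUSG00000020649, chromosome 12, 24708241 to 24714146, plus strand, GRCm38), had 69.1, 70.2 and 66.4 RPKM in OMP libraries, against 168, 168 and 172 RPKM in Vehicle libraries. The OMP libraries lay together far under the Vehicle libraries, a 2.46-fold fall (log2 fold change -1.30 ± 0.04 SE, adjusted p = 1.38e-07 by limma). Rrm1, the large subunit that holds the catalytic site (chromosome 7, 102441695 to 102469771), had 72.7, 73.2 and 70.5 RPKM in OMP libraries, against 98.8, 94.7 and 96.5 RPKM in Vehicle libraries. Its groups did not overlap either, and it fell 1.34-fold (log2 fold change -0.42 ± 0.04 SE, adjusted p = 8.23e-05 by limma). The log2 ratio of Rrm2 to Rrm1 within a library, which no single scaling factor per library changes apart from the pseudocount, was -0.07 ± 0.0134 in OMP libraries and 0.81 ± 0.0358 in Vehicle libraries (log2, SD, n = 3 each). Rrm2 gave 48.7% ± 0.234 of the RPKM of the pair in OMP libraries and 63.7% ± 0.577 in Vehicle libraries (SD, n = 3 each). The groups of ratios did not overlap, and the two-sided exact permutation test gave p = 0.10, the smallest that 3 against 3 libraries allow, or 0.140 adjusted over the 7 pairs of related genes compared.

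The genes that make and protect thymidylate fell as well. Tyms, thymidylate synthase (ENSMUSG00000025747, chromosome 5, 30058202 to 30073617, minus strand), had 14.6, 12.8 and 15.3 RPKM in OMP libraries, against 29.5, 32.6 and 31.4 RPKM in Vehicle libraries. Tk1, the cytosolic thymidine kinase that salvages thymidine (ENSMUSG00000025574, chromosome 11, 117815526 to 117826092, minus strand), had 17.5, 14.5 and 17.9 RPKM in OMP libraries, against 43.5, 40.9 and 41.9 RPKM in Vehicle libraries. No OMP library of either gene reached the level of a Vehicle library, and both fell more than 2-fold (log2 fold change -1.11 ± 0.08 SE, adjusted p = 2.00e-05 by limma for Tyms; log2 fold change -1.32 ± 0.08 SE, adjusted p = 1.08e-05 by limma for Tk1). Dut, the dUTPase that keeps uracil out of DNA and supplies dUMP for thymidylate synthase (chromosome 2, 125247190 to 125258608), had 68.5, 66.6 and 70.3 RPKM in OMP libraries, against 105, 104 and 102 RPKM in Vehicle libraries. It fell 1.51-fold (log2 fold change -0.59 ± 0.04 SE, adjusted p = 1.51e-05 by limma), again without overlap. Dtymk, thymidylate kinase, which turns dTMP into dTDP (chromosome 1, 93792576 to 93801934), had 94.4, 94.7 and 102 RPKM in OMP libraries, against 119.7, 111 and 125 RPKM in Vehicle libraries. Its fall of 1.22-fold was the smallest of the 8 deoxynucleotide genes (log2 fold change -0.29 ± 0.06 SE, adjusted p = 0.00342 by limma).

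The remaining deoxynucleotide genes act on deoxycytidine and its phosphates, among other nucleosides. Dck, deoxycytidine kinase, a salvage enzyme (chromosome 5, 88764996 to 88783281), had 16.2, 15.3 and 14.3 RPKM in OMP libraries, against 29.2, 29.1 and 27.1 RPKM in Vehicle libraries. Dctpp1, a pyrophosphatase that breaks down dCTP and its modified forms (chromosome 7, 127256959 to 127260709), had 33.9, 42.1 and 42.2 RPKM in OMP libraries, against 56.6, 60.0 and 56.8 RPKM in Vehicle libraries. Both were lower in every OMP library than in any Vehicle library. Dck fell 1.84-fold (log2 fold change -0.88 ± 0.07 SE, adjusted p = 2.89e-05 by limma). Dctpp1 fell 1.47-fold (log2 fold change -0.56 ± 0.08 SE, adjusted p = 0.00104 by limma), with OMP replicate 1 of Dctpp1 under the other two. The ratio of Tk1 to Dck, the salvage kinases for thymidine and deoxycytidine, was 0.12 ± 0.195 in OMP libraries and 0.56 ± 0.0670 in Vehicle libraries (log2, SD, n = 3 each), with no overlap (exact permutation p = 0.10, adjusted 0.140). The summed RPKM of the 8 deoxynucleotide genes was 387, 389 and 399 in OMP libraries and 651, 640.3 and 653 in Vehicle libraries.

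Other genes of DNA replication were lower in the same libraries. Of 48 tested genes of a G1/S and replication list that holds none of the 32, 0 were called higher and 46 lower. Over all genes tested, 15.4% were higher and 27.5% lower. The list was chosen with earlier results of these data known. Its median log2 fold change was -0.63, against -0.74 for the 8 deoxynucleotide genes. The summed RPKM of that list was 1425 to 1446 in OMP libraries and 2212 to 2257 in Vehicle libraries. Cdt1, a replication licensing factor, had 30.2, 29.6 and 28.6 RPKM in OMP libraries, against 65.0, 62.6 and 63.6 RPKM in Vehicle libraries, and Mcm3, a helicase subunit, had 67.5, 68.2 and 68.6 RPKM in OMP libraries, against 121, 122 and 117 RPKM in Vehicle libraries. Rrm2, Tk1, Tyms and Dck lay below the list's median, and Dut, Dctpp1, Rrm1 and Dtymk above it. Only 2 of the 48 genes had a log2 fold change below that of Rrm2, as did 102 of all 11020 genes tested. The part that the share of cycling cells has in the fall of the deoxynucleotide genes was not tested.

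**Figure D2:**
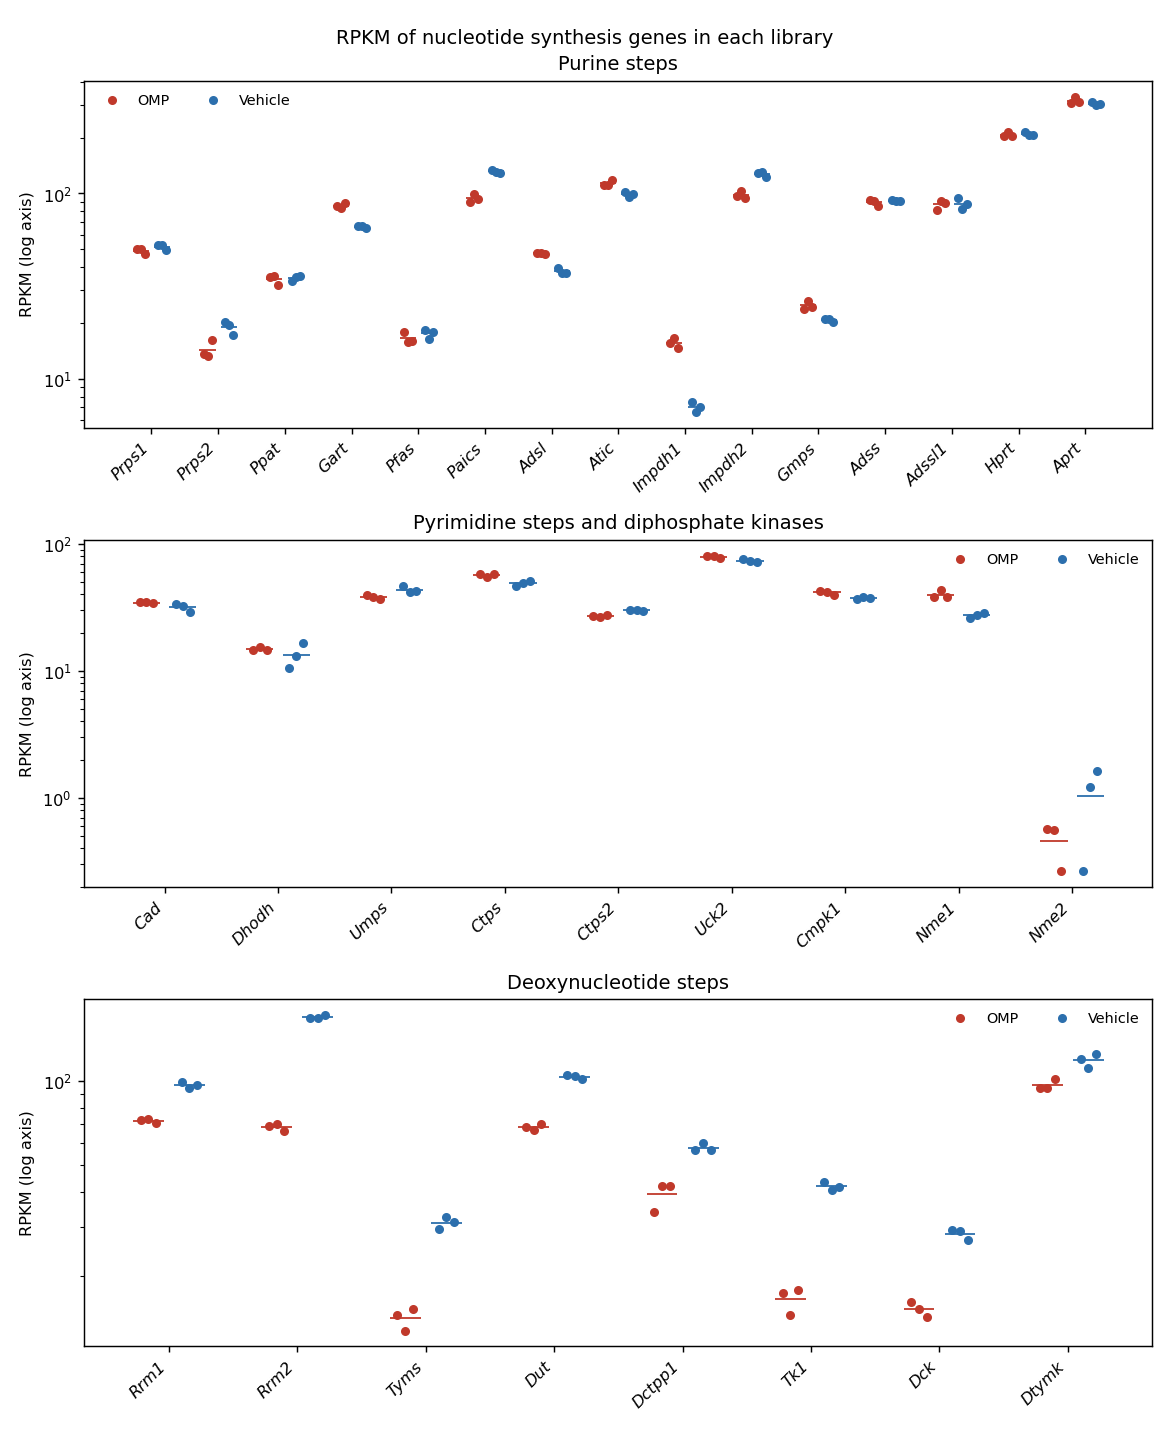
RPKM of the 32 genes in each library (log y axis) by step, with OMP libraries in red left of Vehicle libraries in blue and a line at each mean (n = 3 each). In the bottom panel the OMP points of all 8 deoxynucleotide genes lie under the Vehicle points, while in the top panel Impdh1, Gart, Adsl, Atic and Gmps lie above them, and Nme2 lies at 0.264 to 1.63 RPKM.

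The start regions of Rrm2 and Tk1, which had the smallest p-values among the genes that fell, are shown so that the sequence beside these genes can be read. Each window runs from 250 bases before to 50 after the RefSeq transcription start on GRCm38.p6, read on the gene's strand, and the capitals mark a match on either strand to any of 3 motifs. These were the E-box CACGTG known to be bound by MYC, the E2F-type heptamers TTCCCGC and TTGGCGC, and the CCAAT box. TTGGCGC can overlap a CCAAT box on the other strand (ATTGG). Rrm2 lies at chr12:24708004-24708303, plus strand, and Tk1 at chr11:117825965-117826264, minus strand.
Rrm2: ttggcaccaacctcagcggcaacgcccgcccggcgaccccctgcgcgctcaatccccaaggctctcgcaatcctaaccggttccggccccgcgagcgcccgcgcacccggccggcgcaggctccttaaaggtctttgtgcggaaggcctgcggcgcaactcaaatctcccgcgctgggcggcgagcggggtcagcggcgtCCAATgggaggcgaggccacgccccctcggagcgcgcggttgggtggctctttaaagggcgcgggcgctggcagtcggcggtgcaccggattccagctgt
Tk1: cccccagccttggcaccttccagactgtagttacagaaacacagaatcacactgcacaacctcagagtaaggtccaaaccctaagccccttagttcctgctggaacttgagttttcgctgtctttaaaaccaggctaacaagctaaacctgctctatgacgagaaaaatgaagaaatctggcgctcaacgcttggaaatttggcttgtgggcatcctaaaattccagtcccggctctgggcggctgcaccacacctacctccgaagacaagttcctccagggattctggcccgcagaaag
The Rrm2 window held 1 CCAAT box, which starts 50 bases before the start, and none of the other motifs, and the Tk1 window held none of the 3. A missing match says only that these letters are not in the window. Over all 32851 windows of the RefSeq table, the E-box was in 7.15%, an E2F-type heptamer in 6.81% and a CCAAT box in 37.4%. Among the 8 deoxynucleotide genes, 2 windows held an E-box (Tyms and Dtymk), 2 an E2F-type heptamer (Rrm1 and Dtymk) and 4 a CCAAT box (Rrm1, Rrm2, Dctpp1 and Dtymk).

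The supply of activated ribose phosphate, on which purines are built and to which the finished pyrimidine ring is joined, is the work of Prps1 and Prps2. Prps1, the more abundant isozyme here on the RPKM scale, had 50.2, 49.9 and 47.1 RPKM in OMP libraries, against 52.4, 52.5 and 49.8 RPKM in Vehicle libraries. Its groups overlapped and it did not pass the test, with a 95% interval of -0.18 to 0.04 for the log2 fold change, although TPM rescaling put it at -0.16 (limma adjusted p = 0.0254). Prps2 (ENSMUSG00000025742, chromosome X, 167346322 to 167382749, minus strand) had 13.6, 13.2 and 16.1 RPKM in OMP libraries, against 20.2, 19.5 and 17.3 RPKM in Vehicle libraries. It fell 1.32-fold (log2 fold change -0.40 ± 0.09 SE, adjusted p = 0.00881 by limma), and OMP replicate 3 stood nearest to the Vehicle libraries. The log2 ratio of Prps1 to Prps2 was 1.75 ± 0.198 in OMP libraries and 1.42 ± 0.0727 in Vehicle libraries (log2, SD, n = 3 each). The groups of ratios did not overlap (exact permutation p = 0.10, adjusted 0.140), but OMP replicate 3 at 1.52 and Vehicle replicate 3 at 1.50 almost met.

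Along the path to IMP, the first committed enzyme did not pass the test, 3 later ones rose and 1 fell. Ppat, the amidotransferase that commits ribose phosphate to purines (ENSMUSG00000029246, chromosome 5, 76913249 to 76951578, minus strand), had 35.5, 35.8 and 32.1 RPKM in OMP libraries, against 33.8, 35.3 and 36.0 RPKM in Vehicle libraries. The interval of its log2 fold change was -0.16 to 0.11. Gart, a multifunctional enzyme of early and middle steps (ENSMUSG00000022962, chromosome 16, 91621186 to 91646952, minus strand), had 85.5, 83.5 and 88.7 RPKM in OMP libraries, against 66.8, 66.6 and 64.9 RPKM in Vehicle libraries. All OMP libraries were above all Vehicle libraries, and Gart rose 1.30-fold (log2 fold change 0.37 ± 0.04 SE, adjusted p = 1.94e-04 by limma). Gm15964 on the other strand covers 19.7% of its exon bases, and without a known strand setting reads there cannot be told apart. Pfas, which adds an amide nitrogen from glutamine, had 17.8, 15.8 and 15.9 RPKM in OMP libraries, against 18.4, 16.4 and 17.8 RPKM in Vehicle libraries, with overlap and an interval of -0.26 to 0.09. Paics, a joint carboxylase and synthetase of the next steps (ENSMUSG00000029247, chromosome 5, 76951307 to 76967509, plus strand), had 90.4, 99.8 and 93.0 RPKM in OMP libraries, against 134, 131 and 129.8 RPKM in Vehicle libraries. Here the OMP libraries were the lower ones, and Paics fell 1.39-fold (log2 fold change -0.48 ± 0.05 SE, adjusted p = 9.33e-05 by limma).

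The last enzymes before IMP moved the other way. Adsl, adenylosuccinate lyase, which acts both on the way to IMP and on the way from IMP to AMP (chromosome 15, 80948490 to 80970946), had 47.9, 47.9 and 47.3 RPKM in OMP libraries, against 39.6, 37.0 and 37.4 RPKM in Vehicle libraries. Atic, which closes the purine ring (chromosome 1, 71557150 to 71579631), had 111, 111 and 119 RPKM in OMP libraries, against 102, 96.0 and 99.0 RPKM in Vehicle libraries. Neither gene had overlapping groups, and the rises were small, 1.25-fold for Adsl (log2 fold change 0.32 ± 0.05 SE, adjusted p = 8.19e-04 by limma), against 1.15-fold for Atic (log2 fold change 0.20 ± 0.05 SE, adjusted p = 0.00837 by limma). With TPM rescaling Atic was at 0.11 and no longer passed (limma adjusted p = 0.0838), while its adjusted p was 2.77e-04 to 0.0838 over 16 alternatives.

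The genes of Ppat and Paics lie head to head on chromosome 5, so their start regions are shown together. The RefSeq start of Paics on the plus strand (76951302) lies 276 bases to the left of that of Ppat on the minus strand (76951578), so their first exons overlap in opposite directions. The overlap covers 6.15% of the exon bases of Ppat and 8.67% of those of Paics in GENCODE M21. The strand setting of the counting is not known, and reads of the overlap could be lost or shared. Ppat lies at chr5:76951529-76951828, minus strand, and Paics at chr5:76951052-76951351, plus strand, with the same windows and capitals as above.
Ppat: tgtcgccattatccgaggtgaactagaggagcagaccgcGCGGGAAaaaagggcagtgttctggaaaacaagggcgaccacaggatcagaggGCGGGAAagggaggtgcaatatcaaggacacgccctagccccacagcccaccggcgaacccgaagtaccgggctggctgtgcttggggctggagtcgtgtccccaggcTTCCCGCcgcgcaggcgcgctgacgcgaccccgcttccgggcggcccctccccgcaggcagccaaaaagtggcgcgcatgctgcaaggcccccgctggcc
Paics: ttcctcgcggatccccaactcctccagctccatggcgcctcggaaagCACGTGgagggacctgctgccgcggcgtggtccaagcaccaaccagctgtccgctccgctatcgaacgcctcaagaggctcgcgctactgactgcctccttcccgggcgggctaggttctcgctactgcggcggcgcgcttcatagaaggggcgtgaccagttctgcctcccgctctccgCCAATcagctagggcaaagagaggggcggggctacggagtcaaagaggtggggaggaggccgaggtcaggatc
The Ppat window held 3 E2F-type heptamers, and the Paics window held 1 E-box and 1 CCAAT box. The intervals of the log2 fold changes lay apart, from -0.16 to 0.11 for Ppat and from -0.58 to -0.37 for Paics. A test of that difference was not run.

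At the branch from IMP to GMP the isozymes of IMP dehydrogenase went in opposite directions. Impdh1, the isozyme known as the constitutive one (ENSMUSG00000003500, chromosome 6, 29200434 to 29216364, minus strand), had 15.6, 16.6 and 14.6 RPKM in OMP libraries, against 7.51, 6.58 and 7.06 RPKM in Vehicle libraries. It rested on 436 reads in OMP and 221 reads in Vehicle libraries, did not overlap between groups and rose 2.13-fold (log2 fold change 1.09 ± 0.08 SE, adjusted p = 3.31e-05 by limma). Impdh2, the isozyme known for its rise in dividing cells (ENSMUSG00000062867, chromosome 9, 108560286 to 108565584, plus strand), had 97.3, 103 and 94.3 RPKM in OMP libraries, against 129, 131 and 123 RPKM in Vehicle libraries. It fell 1.30-fold (log2 fold change -0.37 ± 0.05 SE, adjusted p = 3.93e-04 by limma), without overlap. Impdh2 remained the main isozyme on the RPKM scale in both groups. Impdh1 gave 13.7% ± 0.254 of the RPKM of the pair in OMP libraries and 5.24% ± 0.401 in Vehicle libraries (SD, n = 3 each). The log2 ratio of Impdh1 to Impdh2 was -2.62 ± 0.0289 in OMP libraries and -4.08 ± 0.113 in Vehicle libraries (log2, SD, n = 3 each), the widest gap of the 7 pairs, at a difference of 1.47 (exact permutation p = 0.10, adjusted 0.140). Gmps, which turns XMP into GMP (chromosome 3, 63976106 to 64022579), had 23.7, 26.4 and 24.4 RPKM in OMP libraries, against 20.9, 21.0 and 20.2 RPKM in Vehicle libraries, and rose 1.20-fold (log2 fold change 0.26 ± 0.06 SE, adjusted p = 0.00906 by limma). Of all genes tested, 195 had a log2 fold change above that of Impdh1.

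Impdh1 and Gart had the smallest p-values among the genes that rose, and their start regions are shown for that reason, at chr6:29216315-29216614, minus strand and chr16:91646923-91647222, minus strand.
Impdh1: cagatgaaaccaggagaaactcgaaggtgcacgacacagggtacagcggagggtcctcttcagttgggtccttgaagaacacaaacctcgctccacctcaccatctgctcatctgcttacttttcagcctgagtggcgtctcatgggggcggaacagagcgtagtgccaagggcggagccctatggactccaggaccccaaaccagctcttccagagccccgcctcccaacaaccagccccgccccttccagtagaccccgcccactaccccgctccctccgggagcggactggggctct
Gart: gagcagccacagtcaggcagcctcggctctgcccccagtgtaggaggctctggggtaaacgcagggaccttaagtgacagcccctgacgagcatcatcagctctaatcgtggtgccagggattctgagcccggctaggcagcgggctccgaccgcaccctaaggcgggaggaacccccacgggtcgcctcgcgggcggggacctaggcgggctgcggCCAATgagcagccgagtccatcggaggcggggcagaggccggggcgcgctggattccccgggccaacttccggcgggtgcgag
The window of Impdh1 held no match to the 3 motifs, and that of Gart held 1 CCAAT box, which starts 33 bases before the start. Of the 14 purine genes with a window, 3 held an E-box (Paics, Atic and Impdh2), 5 an E2F-type heptamer (Prps1, Prps2, Ppat, Impdh2 and Adss) and 5 a CCAAT box (Prps1, Gart, Paics, Atic and Impdh2). In the Impdh2 window the E2F-type heptamer and the CCAAT box overlap, so shared letters were counted under both motifs. The purine genes with an E-box included 1 that rose (Atic) and 2 that fell (Paics and Impdh2). Outside the purine genes, Nme1, which rose, held an E-box too, as did Tyms and Dtymk, which fell. Windows of Pfas and Dhodh were not used here. Genes on the other strand cover 1.56% of the exon bases of Impdh2, 1.6% of those of Tk1, 2.75% of those of Uck2, 6.11% of those of Umps, 5.64% of those of Nt5c3b and 14.9% of those of Slc25a33.

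Adss, Adssl1 and the salvage genes of purine bases did not pass the test. Adss and Adssl1, the adenylosuccinate synthases, were at similar levels on the RPKM scale, Adss at 90.0 ± 3.58 RPKM in OMP libraries and 91.4 ± 1.11 RPKM in Vehicle libraries (SD, n = 3 each) and Adssl1 at 87.3 ± 4.84 RPKM in OMP libraries and 88.0 ± 5.78 RPKM in Vehicle libraries (SD, n = 3 each). The intervals of their log2 fold changes were -0.12 to 0.07 and -0.15 to 0.13. Their log2 ratio was 0.05 ± 0.120 in OMP libraries and 0.06 ± 0.0805 in Vehicle libraries (log2, SD, n = 3 each) (exact permutation p = 0.900, adjusted 0.900). Hprt, which salvages hypoxanthine and guanine, had 204, 215 and 204 RPKM in OMP libraries, against 215, 207 and 208 RPKM in Vehicle libraries. Aprt, which salvages adenine, was the highest of the 32 genes on the RPKM scale. It had 309, 333 and 311 RPKM in OMP libraries, against 313, 300.3 and 303 RPKM in Vehicle libraries. The intervals were -0.10 to 0.07 for Hprt and -0.03 to 0.14 for Aprt, and both genes overlapped between groups. Hprt passed downward with TPM rescaling (-0.10, limma adjusted p = 0.0319) and Aprt upward with median-of-ratios scaling (0.14, limma adjusted p = 0.0198). The summed RPKM of the 15 purine genes was 1276 to 1333 in OMP and 1290 to 1341 in Vehicle libraries.

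**Figure D3:**
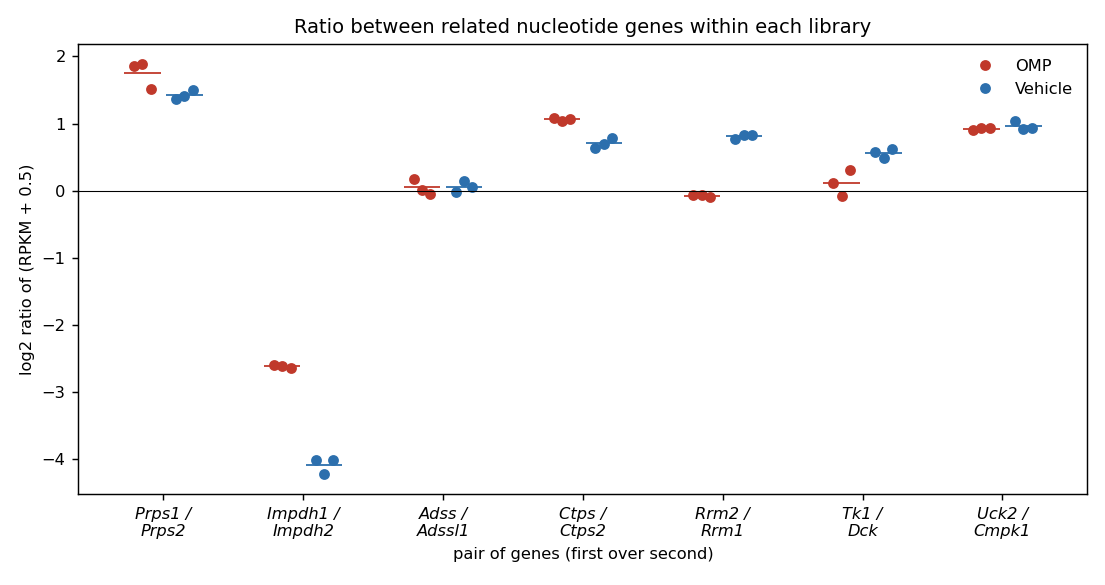
Log2 ratio of (RPKM + 0.5) between the genes of 7 pairs within each library (y axis), first gene over second, with OMP libraries in red left of Vehicle libraries in blue and a line at each mean (n = 3 each). The ratio of Impdh1 to Impdh2 averaged -2.62 in OMP and -4.08 in Vehicle libraries, that of Rrm2 to Rrm1 -0.07 and 0.81, and that of Adss to Adssl1 overlapped between the groups.

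Pyrimidine genes changed little, with no log2 fold change larger than 0.21 in size. Cad, the multifunctional enzyme that starts the ring (chromosome 5, 31054780 to 31078479), had 34.7, 34.7 and 34.2 RPKM in OMP libraries, against 33.8, 32.5 and 29.2 RPKM in Vehicle libraries. Its OMP libraries were all above its Vehicle libraries, but it did not pass the test (log2 fold change 0.12 ± 0.06 SE, adjusted p = 0.160 by limma), except with median-of-ratios scaling (limma adjusted p = 0.0316) and limma-voom (0.0417). Dhodh, the mitochondrial dihydroorotate dehydrogenase, had 14.7, 15.3 and 14.6 RPKM in OMP libraries, against 10.5, 13.1 and 16.5 RPKM in Vehicle libraries. The Vehicle libraries of Dhodh spread more widely than the OMP libraries and enclosed them, and its interval of -0.15 to 0.49 was the widest of the 31 genes. Without Vehicle replicate 3 Dhodh was at 0.33 and passed (limma adjusted p = 0.0401), and it passed in no other left-out set. Umps, UMP synthase (chromosome 16, 33954782 to 33967038), had 39.9, 38.5 and 36.5 RPKM in OMP libraries, against 46.4, 41.9 and 42.7 RPKM in Vehicle libraries. It fell 1.14-fold without overlap (log2 fold change -0.19 ± 0.06 SE, adjusted p = 0.0316 by limma), but lost the call without OMP replicate 2 or 3 or without Vehicle replicate 1 or 3, where its limma adjusted p was 0.0545 to 0.106. It also lost it with median-of-ratios scaling (limma adjusted p = 0.228), quantile normalization (0.0827) and no filter (0.0553).

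CTP synthase, which makes CTP from UTP, showed opposite changes of its isozymes. Ctps (chromosome 4, 120539868 to 120570276) had 57.5, 54.7 and 58.3 RPKM in OMP libraries, against 46.7, 49.6 and 50.7 RPKM in Vehicle libraries, and Ctps2 (chromosome X, 162901238 to 163032508) had 27.1, 26.4 and 27.5 RPKM in OMP libraries, against 30.0, 30.4 and 29.4 RPKM in Vehicle libraries. Neither overlapped between groups. Ctps rose 1.16-fold (log2 fold change 0.21 ± 0.05 SE, adjusted p = 0.00916 by limma), while Ctps2 fell 1.11-fold (log2 fold change -0.15 ± 0.05 SE, adjusted p = 0.0398 by limma). The fall of Ctps2 lost its call whichever library was left out (limma adjusted p 0.0603 to 0.115), and with the other scalings it held only with TPM. Ctps2 also lost the call with limma-voom (adjusted p = 0.0551) and with the replicate number as a block (limma adjusted p = 0.0799). Ctps kept its call in all 6 left-out sets and lost it with TPM rescaling (0.13, limma adjusted p = 0.0807). Within the library, Ctps gave 67.8% ± 0.289 of the RPKM of the pair in OMP libraries and 62.1% ± 1.21 in Vehicle libraries (SD, n = 3 each). The log2 ratio was 1.06 ± 0.0192 in OMP libraries and 0.70 ± 0.0735 in Vehicle libraries (log2, SD, n = 3 each), without overlap (exact permutation p = 0.10, adjusted 0.140).

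The pyrimidine kinases rose slightly or did not pass. Uck2, which salvages uridine and cytidine, had 80.0, 80.3 and 76.8 RPKM in OMP libraries, against 75.9, 73.2 and 72.0 RPKM in Vehicle libraries. Cmpk1, which phosphorylates UMP and CMP, had 42.7, 41.8 and 39.9 RPKM in OMP libraries, against 37.0, 38.3 and 37.2 RPKM in Vehicle libraries. The groups of both lay apart by a narrow margin. Cmpk1 rose 1.10-fold (log2 fold change 0.14 ± 0.05 SE, adjusted p = 0.0402 by limma), a call lost when any library but OMP replicate 3 was left out (limma adjusted p up to 0.108). Cmpk1 also lost the call with TPM rescaling (0.06, limma adjusted p = 0.343) and with the replicate number as a block (limma adjusted p = 0.0679). Uck2 missed the threshold (log2 fold change 0.10 ± 0.04 SE, adjusted p = 0.0842 by limma). Uck2 passed with median-of-ratios scaling (0.19, limma adjusted p = 0.00874), quantile normalization (0.12, limma adjusted p = 0.0443) and limma-voom (0.10, adjusted p = 0.0413). The ratio of Uck2 to Cmpk1 was 0.92 ± 0.0210 in OMP libraries and 0.97 ± 0.0549 in Vehicle libraries (log2, SD, n = 3 each) and overlapped between groups (exact permutation p = 0.300, adjusted 0.350). None of the 4 called pyrimidine genes kept the call under all 16 alternatives, while 7 of the 8 called purine genes and all 8 deoxynucleotide genes did. Among the 6 pyrimidine windows, 0 held an E-box or an E2F-type heptamer and 1, that of Uck2, held a CCAAT box.

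**Figure D4:**
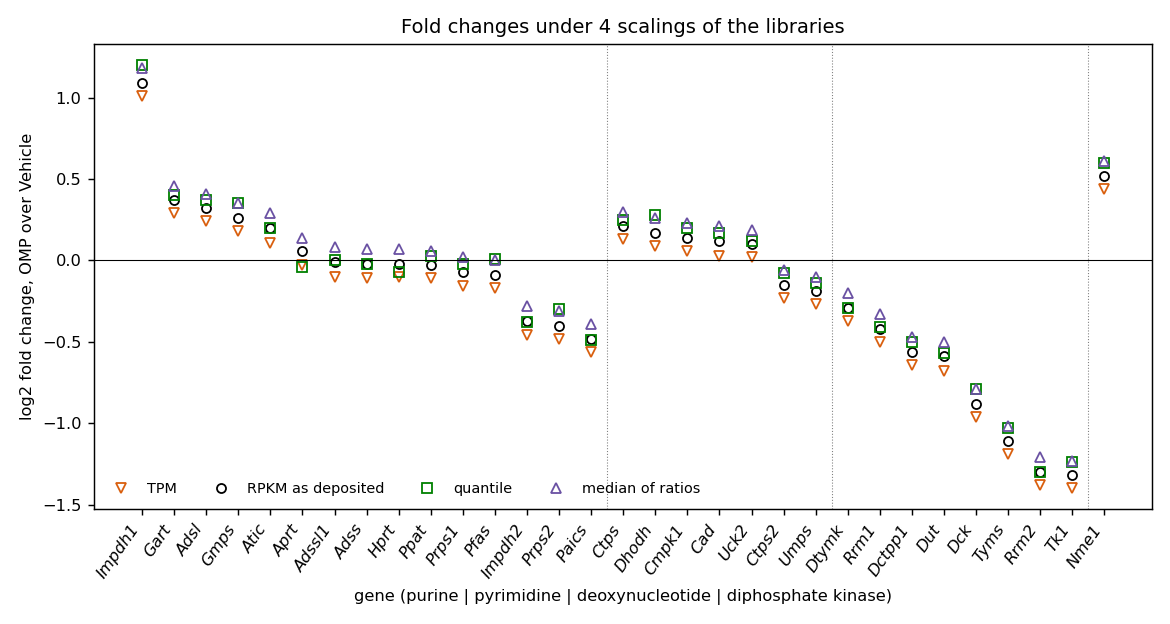
Log2 fold change, OMP over Vehicle, of the 31 tested genes (x axis, by step) under 4 scalings of the libraries (y axis), with RPKM as deposited as black circles. TPM rescaling gives lower values and median-of-ratios scaling higher ones. All deoxynucleotide genes stay below 0 under each scaling, while Umps and Ctps2 come close to 0 with median-of-ratios scaling (-0.10 and -0.06).

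The nucleoside diphosphate kinases pass phosphate to ribonucleoside and deoxynucleoside diphosphates alike. Nme1 (ENSMUSG00000037601, chromosome 11, 93956979 to 93968521, minus strand) had 38.1, 43.0 and 37.9 RPKM in OMP libraries, against 26.2, 27.5 and 28.6 RPKM in Vehicle libraries. It rose 1.44-fold without overlap (log2 fold change 0.52 ± 0.07 SE, adjusted p = 3.74e-04 by limma). Nme2, its neighbour on the same strand (chromosome 11, 93949814 to 93956259), was under the filter, with 2, 2 and 1 reads in OMP libraries, against 1, 5 and 7 reads in Vehicle libraries. A readthrough gene model, Gm20390, spans both loci on the same strand from 93949819 to 93968293, and it had 0 reads in every library. Its exons cover 48.9% of the exon bases of Nme2 and 12.5% of those of Nme1 in GENCODE M21. Reads that fall on shared exons cannot be assigned, so the level of Nme2 is uncertain, the level of Nme1 may be too low, and no fold change is given for Nme2. The Nme1 to Nme2 ratio was left out for the same reason.

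Genes of nucleolar ribosome assembly, many of them known MYC targets like the purine genes, were higher in the same libraries. Of 40 such genes 30 were called higher and 0 lower, where 15.4% of all genes tested were higher and 27.5% lower. This list, too, was chosen with earlier results of these data known. Its median log2 fold change was 0.38, and its summed RPKM was 3988 to 4057 in OMP and 3040 to 3140 in Vehicle libraries. Nop56, a nucleolar protein, had 247, 238 and 250.3 RPKM in OMP libraries, against 138, 139 and 144 RPKM in Vehicle libraries, and Mybbp1a, another nucleolar protein, had 199, 202 and 211 RPKM in OMP libraries, against 116, 112 and 107 RPKM in Vehicle libraries. The median of the 15 purine genes was -0.02. Whether these lists share a cause with the nucleotide genes was not tested.

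A wider set of 57 nucleotide genes, chosen for their role in turnover, salvage, control and transport, held genes that rose and genes that fell. Of 42 tested, 6 were called higher (14.3%, against 15.4% of all genes tested) and 17 lower (40.5%, against 27.5%). The median log2 fold change was -0.18, against -0.09 over all genes tested. In purine turnover 4 were higher and 6 lower of 17. Gda, guanine deaminase, had 114, 112 and 113 RPKM in OMP libraries, against 152, 156 and 157 RPKM in Vehicle libraries, and fell 1.37-fold (limma adjusted p = 2.70e-05). Ak6, an adenylate kinase, had 32.6, 31.7 and 36.2 RPKM in OMP libraries, against 48.2, 49.5 and 52.2 RPKM in Vehicle libraries and fell 1.49-fold (limma adjusted p = 1.95e-04), but Taf9 on the same strand covers 56.5% of its exon bases. In pyrimidine turnover 1 was higher and 2 lower of 7. Upp1, uridine phosphorylase, had 3.58, 6.61 and 4.42 RPKM in OMP libraries, against 2.10, 2.30 and 2.95 RPKM in Vehicle libraries on 67 reads in OMP and 38 reads in Vehicle, and rose 1.79-fold (limma adjusted p = 0.0153). Nt5c3b, a nucleotidase, was at 14.8 ± 1.32 RPKM in OMP libraries and 20.0 ± 3.02 RPKM in Vehicle libraries (SD, n = 3 each) and fell 1.34-fold (limma adjusted p = 0.0184).

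Genes around the deoxynucleotide pool were lower for 5 and higher for 1 of 12 tested. Over all genes tested, 27.5% were lower and 15.4% higher, and 12 genes are few to set beside these shares. Samhd1, which breaks deoxynucleoside triphosphates down, had 25.1, 24.6 and 24.2 RPKM in OMP libraries, against 20.0, 19.3 and 20.2 RPKM in Vehicle libraries and was the 1 gene that rose, 1.24-fold (limma adjusted p = 0.00226). Nucleoside and nucleotide carriers had 0 higher and 4 lower of 6 tested, a still shorter list against the same shares. Slc25a36 and Slc25a33, mitochondrial carriers of pyrimidine nucleotides, fell to 10.4 ± 0.739 and 13.6 ± 1.39 RPKM in OMP libraries, against 18.2 ± 0.729 and 18.9 ± 1.13 RPKM in Vehicle libraries (SD, n = 3 each, limma adjusted p = 1.06e-04 and 0.00335).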

How the data were processed

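The authors deposited RPKM values, 1 column per library and none pooled. The submitters' processing notes list STAR 2.5.3a, featureCounts 1.6.3, Trimmomatic 0.36 and FastQC 0.11.5, and the build mm10 (GRCm38). RNA was poly(A)-selected and made into TruSeq libraries, per the labels' protocols. Annotation release and strand setting: not given in the sources used here. Columns were matched to libraries by title and groups taken from the labels.

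Library totals and whole reads were recovered from the RPKM steps, for 100% of the 19970 genes above 0 within a relative tolerance of 1e-06. The lengths equalled an annotated transcript for 94.6% of them, so RPKM levels compared between genes depend on the transcript chosen. RPKM of 3 reads at 1 kb was 0.706 to 0.858. Read numbers cover counting error only, since PCR copies cannot be told from separate molecules. Gene positions and exon overlaps came from GENCODE M21 on GRCm38.

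OMP was compared with Vehicle by limma 3.58.1 in R 4.3.3 on log2(RPKM + 0.5) over all 6 libraries, without covariates, with a prior variance that follows the mean and a two-sided test. Genes entered with 3 or more libraries at an RPKM of 1 or higher, and p-values were adjusted by Benjamini-Hochberg over all 11020 genes tested. Fold changes on this scale understate those of low genes. Ratios within pairs were tested by two-sided exact permutation over the 6 libraries. The fit was tested on simulated data in which a small share of genes changed, in random directions. That test does not cover a change as wide as the one between these groups, where the split of directions depended on scaling. The genes followed, the gene lists, pairs and motifs were chosen with earlier results of these data known. All 32 genes are named, and of each wider or context list the 2 genes with the smallest p, except that 1 of them is not reported here. Promoters shown are the 2 smallest p-values in each direction, with Ppat and Paics. Alternatives were pseudocounts of 1 and 0.1, no filter, a filter at 5 RPKM, TPM, median-of-ratios and quantile scaling, limma-voom on the recovered reads, the replicate block, a robust prior, an adjusted p of 0.01 and leaving out each library. No 2 libraries of a group were counted as 1, since chi-square per degree of freedom within groups was 1.19 to 1.6, above sampling noise. Such values do not show whether the libraries came from separate cultures. Figures were drawn with matplotlib 3.10.9.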

Additional observations from a re-analysis of the deposited data

How the results depend on the processing

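Of the 32 genes, 18 to 19 were called when each library was left out in turn and 18 to 22 over all alternatives, against 21 as reported. Over all genes, 3952 to 4207 were called without 1 library, against 4735, and 5336 with limma-voom on recovered reads. At an adjusted p of 0.01 there were 3070 (1079 higher, 1991 lower), by construction of the threshold. Of 496 values of single genes under the alternatives, 461 gave the same call, 26 lost the call, 9 became a call and 0 turned direction. Of the 21 called genes 16 kept the call in all 16 alternatives at an adjusted p of 0.05, of which 7 were purine genes, 8 deoxynucleotide genes and 1 Nme1. The labels do not say what the replicate numbers mark. The correlation of deviations within each number was -0.00244, 0.0155 or 0.00694, and for 0 of 6 libraries was the same-numbered one the closest. A weak shared batch could go unseen under counting noise, so these values do not settle whether the numbers mark pairs. Under the replicate block 4445 genes passed over all (1598 higher, 2847 lower) and 19 of the 32 (7 higher, 12 lower), and the differences of the pair ratios were the same, with Impdh1 over Impdh2 at 1.47. Without 1 library the pair differences (log2) ran from 0.26 to 0.44 for Prps1 over Prps2, from 1.40 to 1.50 for Impdh1 over Impdh2, from -0.08 to 0.04 for Adss over Adssl1, from 0.33 to 0.40 for Ctps over Ctps2, from -0.90 to -0.87 for Rrm2 over Rrm1, from -0.54 to -0.35 for Tk1 over Dck, from -0.06 to -0.01 for Uck2 over Cmpk1. The difference for Adss over Adssl1 of -0.01 changed sign in 3 of these sets, and it was no call (exact permutation p = 0.900). Depth limits Nme2 and the low genes of the wider lists most.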
